A study of Bos taurus with 6 samples.

Results

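The SR splicing factors were followed in day-7 bovine blastocysts that had grown in 2 different maternal environments. SR proteins carry an RNA recognition motif and a tail rich in serine and arginine (the RS domain), bind exonic enhancers and recruit the spliceosome to nearby splice sites. Several also take part in mRNA export, translation and nonsense-mediated decay, and their transcripts are held in check by alternative exons that send them to decay. In mouse, embryos that lack Srsf3 do not form blastocysts. The members were the probe sets whose platform annotation names SRSF1 to SRSF7, SRSF10 or SRSF11. Of these 9 genes 8 had a probe set, SRSF2 being the exception. They gave 13 of the 24016 probe sets tested, and 8 of the 9155 genes named on the array.

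The superovulated group was blastocysts of superovulated, artificially inseminated Simmental heifers that stayed in those heifers to day 7. The synchronized group was embryos of superovulated, inseminated heifers too, but these were flushed by endoscope at the 2-cell stage on day 2 and carried to day 7 by recipients that had only been synchronized. All embryos of both groups thus came from stimulated donors, and flushing and transfer cannot be told apart from the change of environment. Each group had 3 Affymetrix Bovine Genome arrays. The labels give neither the number of blastocysts per array nor whether the arrays of one group represent separate collections. The p-values therefore describe the spread among 3 arrays a group, part or all of which may be technical.

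The values are the authors' GCRMA log2 expression values, and a difference is the superovulated mean less the synchronized mean, in log2 units. Means are given ± SD with n = 3. A probe set was called when its adjusted p in limma, over all probe sets, was below 0.05. Most of the array was dim, with array medians of 2.75 to 2.8. Values near those medians carry little signal, and GCRMA compresses them, so the size of a difference that starts there is uncertain. Probe sets above log2 4 numbered 1457 to 1894 on the superovulated arrays, against 973 to 1850 on the synchronized arrays. Probe sets whose mean exceeded log2 4, called bright here, had a median difference of 0.59, against -0.02 for all probe sets. In all, 172 probe sets passed, of which 97.1% were higher in the superovulated group. In a fit over the bright probe sets alone that share was 93.7% of 441, and with each array also centred on their median it was 80.6% of 258. The hybridization controls moved the other way, at 12.67 ± 0.02 on superovulated and 13.20 ± 0.32 on synchronized arrays over 18 probe sets. Their part in the results was not tested.

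Among the SR genes, SRSF3 and SRSF1 rose in blastocysts of superovulated heifers, 2.97-fold and 1.68-fold. No SR probe set fell. SRSF5, SRSF7 and SRSF11 each had 1 probe set with every superovulated array above every synchronized array, but did not pass the adjusted threshold. SRSF10 and SRSF6 had overlapping groups, and their difference was below 0. SRSF4 read near background on all 6 arrays. The 2 calls were 2 of 13 SR probe sets, where 0.716% of all probe sets were called in either direction and 0.695% were called higher. Among bright probe sets 7.82% were called higher, and 4 of the 13 SR probe sets were bright.

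**Figure D1:**
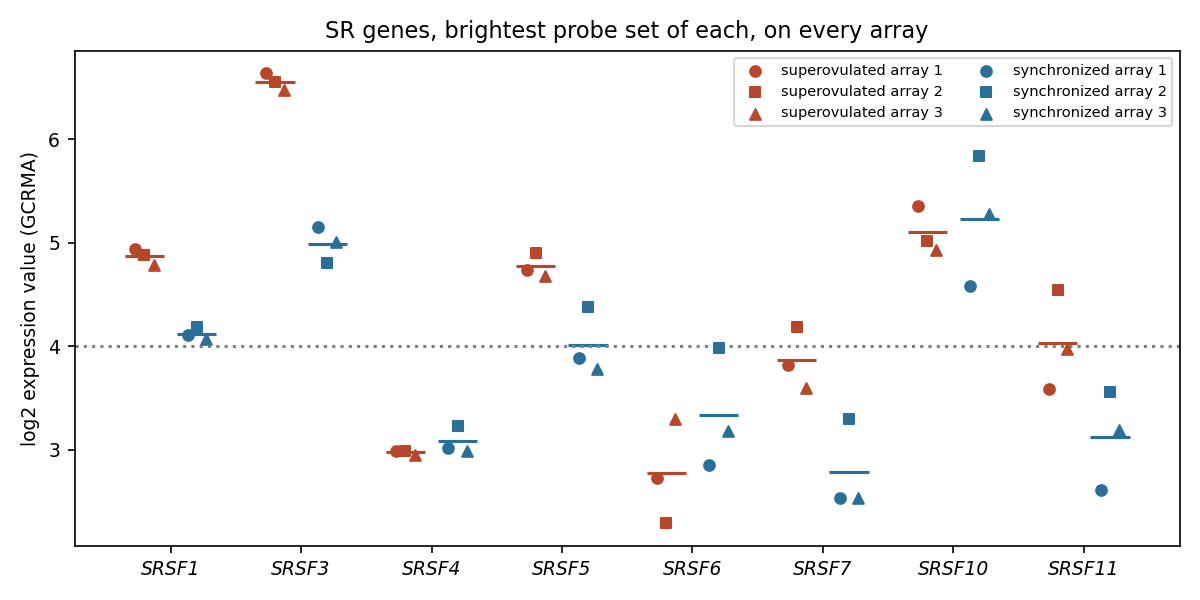
Log2 expression value (vertical axis) of the brightest probe set of each of the 8 SR genes on every array. Points are single arrays, short lines are group means, superovulated on the left and synchronized on the right of each gene, and the dotted line marks log2 4. The groups lie apart for SRSF1, SRSF3, SRSF5, SRSF7 and SRSF11 and overlap for SRSF4, SRSF6 and SRSF10.

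SRSF3 is the smallest of the classical SR proteins, with a single RNA recognition motif, and hands spliced mRNA to the export receptor NXF1. Its probe set, Bt.4741.1.S1_at, read 6.64, 6.56 and 6.48 on superovulated arrays 1 to 3, against 5.15, 4.81 and 5.01 on synchronized arrays 1 to 3. The lowest superovulated array stood 1.33 above the highest synchronized array. The difference was 1.57 (95% interval 1.31 to 1.83, limma adjusted p = 0.0167). A difference at least this large was found in 22.9% of bright probe sets, so its size was not unusual among them, while its spread between arrays was small. Against synchronized array 2 alone, which had more probe sets above log2 4 than superovulated arrays 1 and 2, the superovulated mean of SRSF3 was 1.75 higher. SRSF3 had its lowest value on that array. By the brightest probe sets, the same distance was 0.68 for SRSF1, 0.39 for SRSF5, 0.57 for SRSF7 and 0.47 for SRSF11. It was -0.25 for SRSF4, -1.21 for SRSF6 and -0.74 for SRSF10.

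SRSF1, the prototype of the family, defines exons with a pair of RNA recognition motifs and also acts in nonsense-mediated decay. Its probe set Bt.864.1.A1_at read 4.94, 4.88 and 4.79 on the superovulated arrays, against 4.11, 4.19 and 4.07 on the synchronized arrays. The arrays of each group lay within a narrow band and the groups did not overlap. The difference was 0.75 (95% interval 0.61 to 0.88, limma adjusted p = 0.0190). A difference of at least this size was found in 44.7% of bright probe sets. The other probe sets of SRSF1, Bt.864.2.S1_a_at and Bt.864.2.S1_at, read 2.82 to 2.88 on the superovulated arrays and 2.85 to 3.02 on the synchronized arrays. They lay near background, differed by -0.07 and -0.03, and did not show the rise.

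Both calls depended on which arrays and which scaling were used. With 1 array left out at a time, the difference of SRSF3 stayed between 1.48 and 1.65 but was called in 2 of 6 cases, without synchronized array 1 (1.65) or 2 (1.48). It was 1.53, 1.57 and 1.61 with superovulated arrays 1, 2 and 3 left out in turn and 1.58 with synchronized array 3 left out, with limma adjusted p between 0.0520 and 0.0723. The difference of SRSF1 stayed between 0.71 and 0.79 and was called without superovulated array 3 (0.79) or synchronized array 2 (0.78). With superovulated arrays 1 and 2 and synchronized arrays 1 and 3 left out in turn it was 0.71, 0.74, 0.74 and 0.72, with limma adjusted p between 0.0520 and 0.0901.

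In the fit over bright probe sets alone both were called, at limma adjusted p = 0.0047 for SRSF3 and adjusted p = 0.029 for SRSF1. That fit called 441 of 1406 probe sets. Once each array was centred on the median of its bright probe sets in that same fit, SRSF3 still differed by 0.95 and SRSF1 by 0.13, and neither was called, at limma adjusted p = 0.143 for SRSF3 and adjusted p = 0.812 for SRSF1. Relative to the bright median of its array, SRSF3 stood at 1.65, 1.37 and 1.09 on the superovulated arrays, against 1.03, -0.28 and 0.52 on the synchronized arrays. The groups of SRSF3 therefore still did not overlap, but 1.09 and 1.03 lay closer than the spread within either group (SD 0.28 superovulated, 0.66 synchronized). SRSF1 stood at -0.05, -0.31 and -0.60 against -0.01, -0.90 and -0.43, and its groups overlapped. SRSF1 thus differed by about as much as the bright probe sets as a body. The mean difference of SRSF3 was larger than theirs, though without a call.

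**Figure D2:**
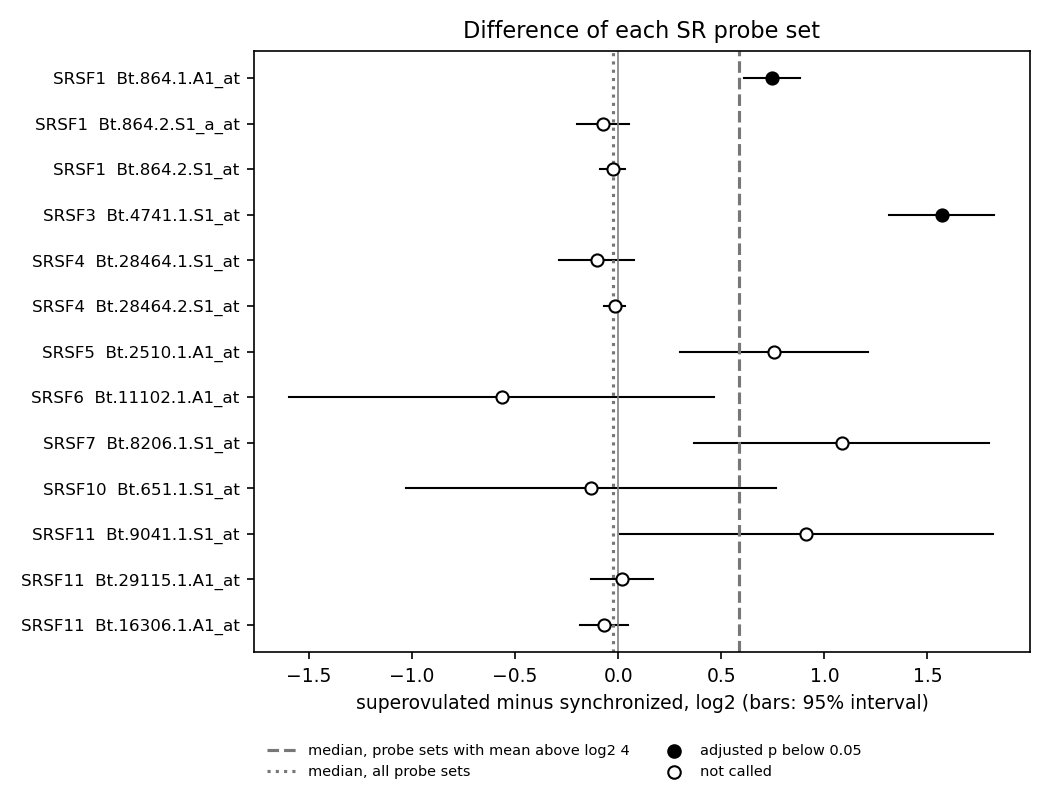
Difference between the groups (horizontal axis, superovulated minus synchronized, log2) for each of the 13 SR probe sets, with its 95% interval from the limma fit. Filled points were called, and the vertical lines mark the medians of all probe sets (-0.02) and of bright probe sets (0.59). SRSF3 and SRSF1 are called, and the dimmer probe sets of SRSF1 and SRSF11 lie close to 0.

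SRSF7, which adds a zinc knuckle to a single RNA recognition motif and is the family member closest to SRSF3, read 3.82, 4.19 and 3.60 on the superovulated arrays, against 2.53, 3.30 and 2.53 on the synchronized arrays (Bt.8206.1.S1_at). Synchronized arrays 1 and 3 were at background, and array 2 was 0.30 below the lowest superovulated array. The difference of 1.08 had a 95% interval of 0.37 to 1.80 and did not pass (limma adjusted p = 0.371). SRSF11, a less studied family member, read 3.59, 4.54 and 3.97 on the superovulated arrays, against 2.61, 3.56 and 3.19 on the synchronized arrays (Bt.9041.1.S1_at). Its groups were separated by 0.03, less than the spread within either group, and the difference of 0.91 did not pass (limma adjusted p = 0.636). Its other probe sets, Bt.29115.1.A1_at and Bt.16306.1.A1_at, lay between 2.73 and 3.23 on all arrays and differed by 0.02 and -0.07.

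SRSF5, first described in rat as a gene induced in regenerating liver, read 4.74, 4.90 and 4.68 on the superovulated arrays, against 3.89, 4.38 and 3.78 on the synchronized arrays (Bt.2510.1.A1_at). The groups did not overlap, with synchronized array 2 closest to the superovulated arrays. The difference of 0.76 matched that of SRSF1 in size, but the synchronized arrays spread more (SD 0.32 for SRSF5 and 0.06 for SRSF1), and it did not pass (95% interval 0.30 to 1.21, limma adjusted p = 0.294). It fell to 0.14 once arrays were centred on the bright probe sets. In total 5 of 13 SR probe sets, from 5 of 8 genes, had every superovulated array above every synchronized array, and 0 had the reverse. Of all probe sets 5.42% had every superovulated array higher and 7.89% the reverse, and 42.5% of the bright ones had every superovulated array higher.

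SRSF10, which represses splicing when it loses its phosphates in mitosis or after heat shock, had the widest spread among the synchronized arrays of the 13 probe sets. Its probe set, Bt.651.1.S1_at, read 5.36, 5.02 and 4.93 on the superovulated arrays, against 4.58, 5.84 and 5.28 on the synchronized arrays. The synchronized arrays held both the highest and the lowest value. The difference was -0.13, with a 95% interval of -1.03 to 0.77 that includes rises and falls (limma adjusted p = 0.822). The sign turned to 0.17 without synchronized array 2, and the difference was -0.75 with arrays centred on the bright probe sets, also without a call (limma adjusted p = 0.168, fitted over those alone). Relative to the bright median SRSF10 stood at 0.37, -0.17 and -0.46 on the superovulated arrays and at 0.46, 0.75 and 0.79 on the synchronized arrays. Its groups then no longer overlapped, but 0.37 and 0.46 lay closer than the spread within either group (SD 0.42 superovulated, 0.18 synchronized).

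SRSF6, a regulator of tau exon inclusion in human cells, read 2.73, 2.29 and 3.30 on the superovulated arrays, against 2.85, 3.98 and 3.18 on the synchronized arrays (Bt.11102.1.A1_at). Superovulated array 3 and synchronized array 2 were the highest of their groups and also had the most probe sets above log2 4 (1894 and 1850). The difference of -0.56 did not pass (95% interval -1.59 to 0.47, limma adjusted p = 0.636). SRSF4, the largest of the classical SR proteins, read 2.95 to 2.99 on the superovulated arrays and 2.99 to 3.23 on the synchronized arrays (Bt.28464.1.S1_at). Its second probe set, Bt.28464.2.S1_at, read 2.50 to 2.53 on the superovulated arrays and 2.51 to 2.55 on the synchronized arrays. Neither probe set gave a usable signal for SRSF4.

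**Figure D3:**
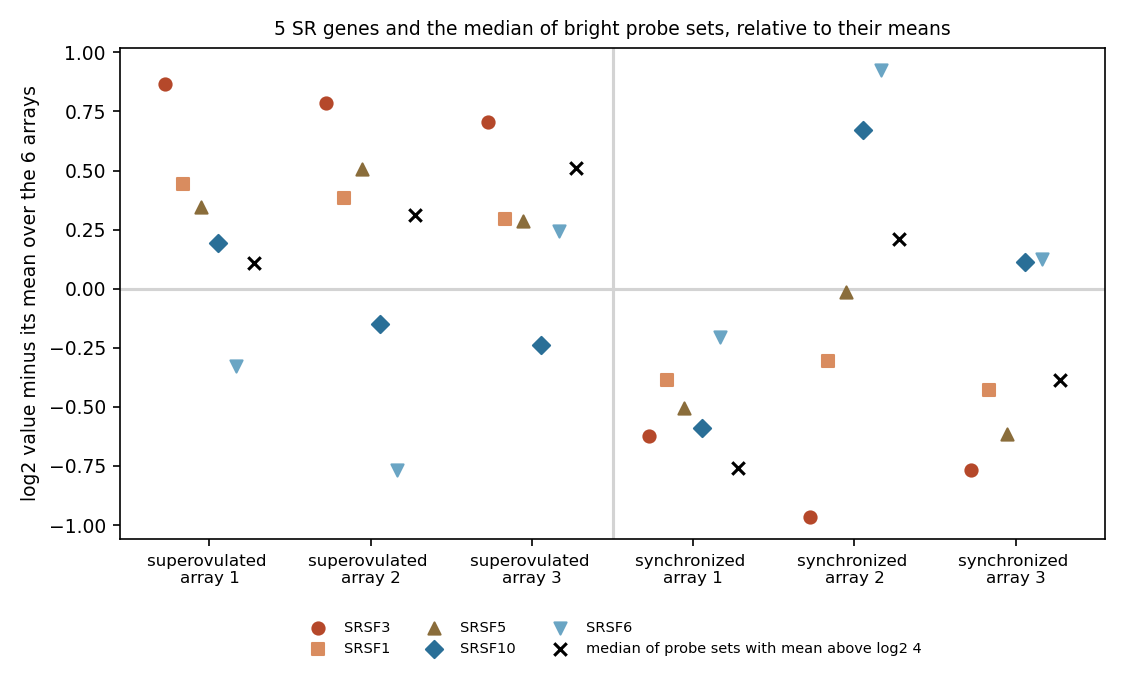
Log2 value minus its own mean over the 6 arrays (vertical axis) for 5 SR genes, brightest probe set each, and for the median of the bright probe sets, by array. SRSF3 and SRSF1 are above 0 on all superovulated arrays and below it on all synchronized arrays, whereas SRSF10, SRSF6 and the bright median are above 0 on synchronized array 2.

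The change of SRSF3 against other SR genes was also read within each array, where a shift equal at all intensities cancels. The shift between groups was not equal, with a median of -0.02 over all probe sets and 0.59 over bright ones. SRSF3 was brighter than the other members of the pairs, and the part of such a shift in these changes was not tested. These 4 pairs were chosen after the values were seen, and only the change of a distance between 2 probe sets has a meaning, not the distance itself. SRSF3 minus SRSF10 was 1.28, 1.54 and 1.55 on the superovulated arrays, against 0.57, -1.03 and -0.27 on the synchronized arrays, a change of 1.70. SRSF3 minus SRSF1 was 1.70, 1.68 and 1.69 on the superovulated arrays, against 1.04, 0.62 and 0.94 on the synchronized arrays. The superovulated arrays thus held SRSF3 and SRSF1 at the same distance to within 0.02, and the distance was 0.82 larger there than in the synchronized group. SRSF3 minus SRSF5 changed by 0.81 and SRSF3 minus SRSF7 by 0.49. The groups did not overlap for SRSF10, SRSF1 and SRSF5, at p = 0.1 each in an exact two-sided permutation test (0.133 after Benjamini-Hochberg adjustment over the 4 pairs), which is the smallest value 3 against 3 arrays allow. For SRSF7 the exact permutation p was 0.3, also after adjustment.

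By the brightest probe set of each gene, the median difference of the 8 SR genes was 0.75, with 5 genes above 0 and 3 below. It was 0.38 after a second quantile normalization and 0.13 for the 4 bright SR genes after centring on bright probe sets. Over all genes the same median was -0.02, and over bright probe sets 0.59. For all 13 SR probe sets the median was -0.02, with 6 above 0 and 7 below, against -0.02 for all probe sets. The 0.75 thus depended on taking the brightest probe set of each gene. Genes with a single RNA recognition motif (SRSF3, SRSF7, SRSF10, SRSF11) ranged in difference from -0.13 to 1.57, and those with a pair of them (SRSF1, SRSF4, SRSF5, SRSF6) from -0.56 to 0.76. Each class held 1 called gene. Replicates were tighter in the superovulated group for 11 of 13 SR probe sets, with median SDs of 0.08 in the superovulated and 0.13 in the synchronized group, and for 67.4% of all probe sets.

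**Figure D4:**
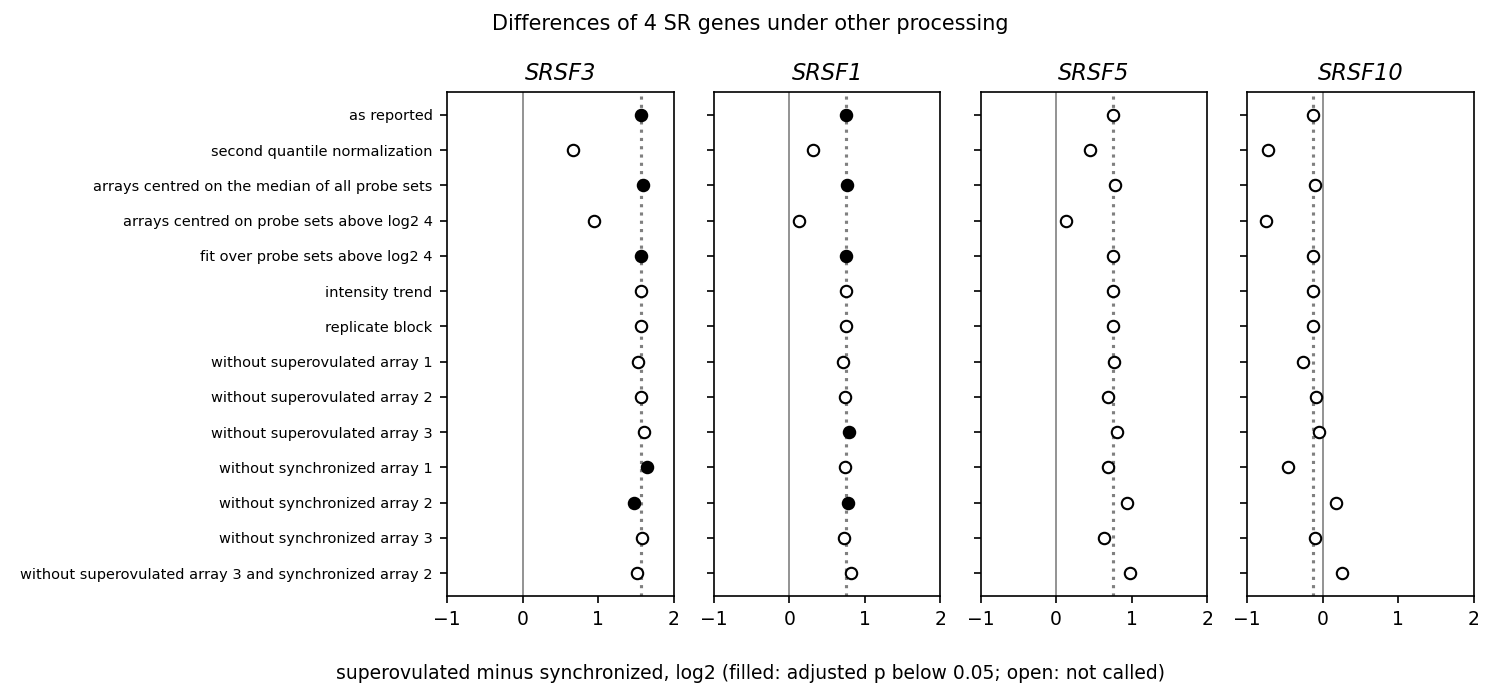
Difference between the groups (horizontal axis, superovulated minus synchronized, log2) of SRSF3, SRSF1, SRSF5 and SRSF10 as reported (top row, dotted line) and under 13 other ways of processing (rows). Filled points were called. SRSF3 ranges from 0.67 to 1.65 and SRSF10 from -0.75 to 0.26.

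Genes that work on or with SR proteins were read from 4 lists, each gene by its brightest probe set. Over all 9155 genes, 1.32% were called in either direction, 1.3% were called higher, and 9.06% had every superovulated array above every synchronized array. The first list held the kinases that phosphorylate RS domains, the catalytic subunits of the phosphatase that reverses this, and the importer TNPO3. Of its 11 measured genes 0 passed in limma in either direction, and at unadjusted p below 0.05 there was 1 higher and 1 lower, where 7.86% of all genes were higher and 2.16% lower at that threshold. The median difference was -0.04. DYRK1A, a kinase of nuclear speckles, read 5.99, 5.90 and 5.98 on the superovulated arrays, against 3.68, 5.10 and 4.19 on the synchronized arrays. Its groups did not overlap, yet the difference of 1.63 did not pass (limma adjusted p = 0.281). It passed when only bright probe sets were tested (limma adjusted p = 0.0262), as did 441 of 1406 probe sets. SRPK2, the kinase that prepares SR proteins for nuclear import, differed by -0.28 (limma adjusted p = 0.601), from means of 3.50 in the superovulated and 3.78 in the synchronized group. TNPO3 differed by 0.37 (limma adjusted p = 0.636), with only superovulated array 1 (3.97) clearly above the others.

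The second list held other proteins with RS domains and their close partners at the 5' splice site. Of its 27 measured genes 2 rose, 0 fell and 25 did not pass. LUC7L3, a relative of the yeast U1 snRNP protein Luc7, read 8.09, 8.17 and 7.98 on the superovulated arrays, against 5.25, 5.30 and 5.86 on the synchronized arrays. It rose by 2.61, or 6.11-fold (limma adjusted p = 0.0190), and its second probe set, near background, differed by 0.04. LUC7L, of the same family, read 5.01, 5.13 and 4.77 on the superovulated arrays, against 3.71, 3.37 and 3.68 on the synchronized arrays. It rose by 1.38 (limma adjusted p = 0.0387). Both genes stood apart between groups on every array. With 1 array left out at a time, LUC7L was called in 0 of 6 cases (1.27 to 1.48, limma adjusted p 0.0638 to 0.130) and LUC7L3 in 1, without synchronized array 3 (2.81). Without the other arrays in turn LUC7L3 ranged from 2.50 to 2.66.

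In this second list 15 of 27 genes had every superovulated array above every synchronized array, as did 9.06% of all genes. The reverse held for 1 of the 27, and for 7.86% of all genes. Of the 8 bright members 7 had every superovulated array higher, where 44.6% of all bright genes did, and 2 of the 8 were called higher, where 8.65% of bright genes were. High superovulated values raise the mean that defines bright. SRSF9, LUC7L and RBM39 were bright with synchronized means of 3.52, 3.59 and 3.49. These shares therefore lean towards higher superovulated values and are no test of the list. The list median was 0.45, and 0.46 after a second quantile normalization. A further 5 members are given here that were chosen after their values were seen. SRSF9, an SR protein outside the 9 genes above, read 5.20, 5.23 and 5.44 on the superovulated arrays, against 3.25, 4.15 and 3.16 on the synchronized arrays. Its groups lay 1.05 apart, but the difference of 1.77 did not pass (limma adjusted p = 0.118). SNRNP70, the U1 snRNP protein that SRSF1 contacts, differed by 1.05 (limma adjusted p = 0.143) and the splicing coactivator RBM39 by 1.68 (limma adjusted p = 0.294). SRRM2, a scaffold of nuclear speckles, differed by 1.85 (limma adjusted p = 0.524), with 8.39 on superovulated array 2 and 6.53 on superovulated array 3. TRA2B, a splicing activator, differed by 0.34 (limma adjusted p = 0.434), and its sign turned to -0.29 with arrays centred on bright probe sets.

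**Figure D5:**
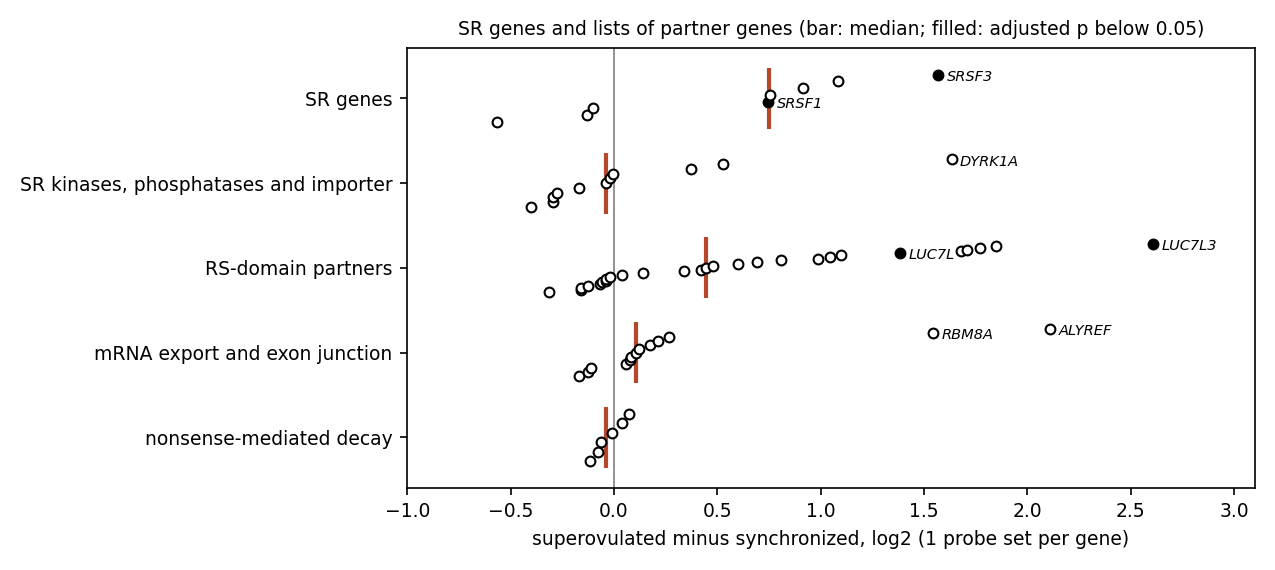
Difference between the groups (horizontal axis, superovulated minus synchronized, log2) of each SR gene and of each gene in the 4 partner lists, 1 probe set per gene. Filled points were called and the bar is the list's median. LUC7L3 and LUC7L are called among the RS-domain partners, and nonsense-mediated decay genes lie within 0.12 of 0.

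In the list of mRNA export and exon junction genes 0 of 13 passed in limma, where 1.32% of all genes did. At unadjusted p below 0.05 there were 2 higher and 1 lower, where 7.86% of all genes were higher and 2.16% lower. RBM8A, a core protein of the exon junction complex, read 4.20, 4.05 and 3.89 on the superovulated arrays, against 2.15, 2.81 and 2.55 on the synchronized arrays. All 3 synchronized values were at background, and the difference of 1.54 did not pass (limma adjusted p = 0.0576). ALYREF, the export adaptor, read 5.71, 5.67 and 4.71 on the superovulated arrays, against 2.83, 2.91 and 4.02 on the synchronized arrays. Its groups did not overlap, and the difference of 2.11 did not pass (limma adjusted p = 0.238). THOC2 of the THO complex differed by -0.11 (limma adjusted p = 0.591). In nonsense-mediated decay 0 of 6 measured genes passed in limma, and 0 had an unadjusted p below 0.05. UPF3B differed by -0.12, SMG8 by -0.06 and SMG9 by 0.07, all near background, so these probe sets say little about the pathway.

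The 5 genes whose values over the 6 arrays followed the mean of the 4 bright SR genes most closely were POLR2F, TAF13, LNPK, ELMO2 and NDUFA12, with Pearson r from 0.988 for NDUFA12 to 0.999 for POLR2F. They were picked as the highest of 921 candidate genes, of which 25% had r above 0.9. These r describe 6 arrays that share their brightness and group structure. POLR2F, a subunit of RNA polymerase II, read 7.28, 6.73 and 6.33 on the superovulated arrays, against 3.16, 4.51 and 3.50 on the synchronized arrays. It moved over a wider range than any of the SR genes. Among the SR genes SRSF5 and SRSF7 followed each other most closely (r = 0.989), and SRSF3 and the near-background SRSF4 least (r = -0.63), with the same r to that precision for SRSF3 and SRSF6.

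Markers of the embryo and of other cells were read on the same arrays. Over all genes 1.3% were called higher. In bulk samples fewer cells of a type and less RNA per cell cannot be told apart. Of 14 blastocyst markers 7 had a probe set and 3 were bright (KRT18, ATP1B3 and GATA6); KRT18 rose, and SOX2 and KRT8 were near background in both groups. POU5F1 read 3.54, 3.43 and 3.24 on the superovulated arrays, against 2.65, 2.73 and 2.40 on the synchronized arrays, and did not pass (difference 0.81, limma adjusted p = 0.0886). GATA6 and ATP1B3 differed by 2.12 and 1.28, without overlap and without passing (limma adjusted p = 0.141 for GATA6 and adjusted p = 0.354 for ATP1B3). The list averaged 4.40 to 4.58 on the superovulated arrays and 3.09 to 3.47 on the synchronized arrays, so its mean was higher on the same arrays as SRSF3 and SRSF1. That mean was carried by KRT18, GATA6, ATP1B3 and POU5F1, while KRT8, SOX2 and IFNT2 each differed by -0.01. The cumulus and granulosa list (11 of 11 measured, 1 higher, 0 lower) averaged 3.25 to 3.84 on the superovulated and 3.41 to 4.06 on the synchronized arrays. Its members did not move as one. The called one was COL1A2, with a difference of 0.66 (limma adjusted p = 0.0316), and the list median was -0.08. FOXL2 was highest on synchronized array 1 (4.18). The list's 2 bright members were high on superovulated array 3 and synchronized array 2, the arrays where SRSF6 was highest in its group. TNFAIP6 read 3.05, 2.99 and 7.38 on the superovulated arrays, against 4.25, 8.47 and 5.96 on the synchronized arrays. INHA read 4.79, 4.85 and 6.64 on the superovulated arrays, against 4.85, 6.79 and 4.87 on the synchronized arrays. Without those 2 arrays SRSF3 differed by 1.52 and SRSF1 by 0.82, neither called (limma adjusted p = 0.118 for SRSF3 and adjusted p = 0.108 for SRSF1), and SRSF6 by -0.51. The oviduct and uterus list (10 of 11 measured, 1 higher, 0 lower) averaged 3.31 to 3.42 on the superovulated and 2.87 to 2.95 on the synchronized arrays, with the oviductal gene OVGP1 at background. The epithelial gene EPCAM and the complement gene C3 differed by 2.38 and 2.56 and were its only bright members, C3 being the called one, and the list median was -0.03. The blood list (9 of 11 measured, 0 called) averaged 2.71 to 2.76 on the superovulated and 2.74 to 2.8 on the synchronized arrays, with 0 bright members. The part of these lists in the SR results was not tested.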

How the data were processed

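The deposited table held 24128 probe sets on 6 arrays, as log2 expression values from 1.45 to 15.97 that the authors made with GCRMA, per the submitters' processing notes; the version, and whether the arrays were normalized together, are not given in the sources used here. The 112 control probe sets were left out of the tests. Symbols came from GEO's platform annotation: 13292 of the 24016 tested probe sets had 1 symbol, 86 several and 10638 none. Gene identifiers matched the ARS-UCD2.0 gene table for 13263 probe sets and changed 0 symbols. No genome coordinates or sequences were used here.

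The fit over all probe sets used lmFit and eBayes of limma 3.58.1 under R 4.3.3, with no term but the group and two-sided tests, with Benjamini-Hochberg adjustment over all 24016 probe sets; intervals are 95%. On simulated data the fit returned the changes put in on average, but called only a minority of them. Precision is limited by the 3 arrays per group. The members, the lists and the tests were chosen with earlier results of these data known. All SR probe sets are given. From each partner list the called genes are named, or else the 3 genes with the smallest p; any other name is marked as picked with its values in view. The 5 genes most like the SR genes had a mean above log2 4 and the highest Pearson r.

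The alternatives were a second quantile normalization, centring on all probe sets, a fit over bright probe sets alone, the same with centring on them, an intensity trend, gene means, a replicate block and leaving out arrays. Same-numbered arrays of the groups did not consistently deviate together (r of deviations 0.54, -0.40 and -0.41 for arrays 1, 2 and 3). The highest r, 0.69, was that of superovulated array 3 with synchronized array 2. Deviations from a group mean are tied to each other, so these r cannot settle whether the numbers mark pairs. The numbers were not taken as pairs in the fit as reported.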

Additional observations from a re-analysis of the deposited data

How the results depend on the processing

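SRSF3 kept its direction under 13 alternatives and was called under 4. SRSF1 kept its direction under 14 and was called under 5. The additional setting for SRSF1 was the averaging of a gene's probe sets, which was not counted for SRSF3 with its single probe set. The calls numbered 172 as reported and 28 after a second quantile normalization, which included 0 SR probe sets, 0 SR genes and 0 RS-domain partners. In that setting SRSF3 differed by 0.67 and SRSF1 by 0.31. An intensity trend gave 50 calls and the replicate block 0 calls, each with 0 SR probe sets, 0 SR genes and 0 RS-domain partners. The replicate block left the difference of SRSF3 at 1.57 with limma adjusted p = 0.114. Centring on bright probe sets, with the fit over those alone, gave 258 calls with 0 SR probe sets, 0 SR genes and 2 RS-domain partners. The partners were LUC7L3 at 1.99 (limma adjusted p = 0.0145) and SRSF9 at 1.15 (limma adjusted p = 0.0408). LUC7L was not called there, at 0.76 (limma adjusted p = 0.221). Testing bright probe sets alone gave 441 calls among 1406 probe sets. They included 1 of the 4 bright genes of the kinase list, 5 of the 8 bright RS-domain partners and the only bright export gene. High superovulated values raise the mean that defines bright, and the export gene, ALYREF, had a synchronized mean of 3.25. These counts are therefore no test of the lists. Averaging a gene's probe sets left 2 SR genes called, SRSF1 among them at 0.22, and gave 3 RS-domain partners and 1 export gene. Without single arrays, and without superovulated array 3 and synchronized array 2 together, the calls numbered 1 to 137, the SR probe sets and SR genes 0 to 2, and the RS-domain partners 0 to 2. The sign turned for SRSF10 without synchronized array 2 (0.17) and without both of those arrays (0.26; -0.46 to 0.26 over all settings that leave out arrays), for Bt.29115.1.A1_at of SRSF11 without superovulated array 2 (-0.038; -0.038 to 0.057 over those settings), for TRA2B under quantile normalization (-0.065) and bright centring (-0.29), for Bt.864.2.S1_at of SRSF1 under quantile normalization (0.0022), and for Bt.28464.2.S1_at of SRSF4 under quantile normalization (0.0033) and median centring (0.0067). The cause of these changes was not tested, except that fewer probe sets or arrays were tested where some were left out. Low signal limits SRSF4, SRSF6 and the decay genes.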
